A study of Mus musculus with 6 samples.

Results

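Potassium channel genes were followed in whole colon of young mice that lack Indian hedgehog, a secreted signal, in the gut epithelium. The members were all genes whose platform symbol begins with Kcn, then letters and a number, with Kcnmb1 left out by rule. They came to 90 of the 19938 genes tested. The rule picked genes by name, though it was set with earlier results of these data known. Where a gene had several rows, the row with the highest mean was kept. Members were classed by symbol, not by the known gating of each. The symbols placed 35 with voltage-gated pore subunits, 12 with their auxiliary subunits, 15 with inward rectifiers and 14 with two-pore channels. A further 8 were placed with calcium- or sodium-activated pores and 3 with auxiliary subunits of the large-conductance calcium-activated (BK) channel. The other 3, Kcnd3os, Kcnmb4os1 and Kcnmb4os2, are long noncoding RNAs.

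The mutants were VilCre;Ihhflox/flox mice, with Ihh (Indian hedgehog) flanked by loxP sites and Cre recombinase driven by the promoter of villin, a gene of gut epithelial cells. The controls were littermates labelled wild type; whether they carried floxed alleles is not given in the sources used here. There were 3 mutant and 3 control mice from 3 litters, and per the design text mutant and control of one number shared a litter. The design text gives postnatal day 12 and the growth protocol day 9 to day 12, so exact ages are not known; expression was read on 1 Affymetrix Mouse Gene 1.0 ST array per mouse.

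Potassium channels let potassium ions leave or enter a cell along their gradient and so set its resting potential. In the colon, channels of the epithelium keep up the electrical drive for chloride secretion and also secrete potassium, while channels of smooth muscle, interstitial cells and enteric neurons shape contraction and excitability. Voltage-gated pores open on depolarisation, inward rectifiers pass current best near rest, two-pore channels carry background current, and calcium-activated pores follow the calcium level in the cell. Auxiliary subunits change the gating or the trafficking of a pore.

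Values are expression on the log2 scale as processed by the authors with RMA, and each change is mutant minus control with its standard error from a limma fit with the litter as a block. A gene was said to rise or fall when its limma p, adjusted by Benjamini-Hochberg over 19938 genes, was under 0.05. Array medians lay between 7.10 and 7.14. The transcript of Ihh itself read 8.37, 8.22 and 8.22 in mutants 1 to 3, against 8.50, 8.54 and 8.68 in controls 1 to 3, and did not pass (adjusted p = 0.139); the part deleted is not stated. Ptch1, the hedgehog receptor and a target of the pathway, fell by 1.44 ± 0.09 (adjusted p = 0.000493). Markers of colon epithelium and of muscle were well represented, with Krt8 at 13.2 to 13.3 in mutants and 13.1 to 13.4 in controls.

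Of the 90 members, 2 rose (Kcnk1 and Kcnq1), 2 fell (Kcnd3 and Kcnj16) and 86 did not pass. The 4 members called are 4.44% of the family, and 3.77% of all genes tested were called, so the share was near the background. By direction, 2.22% of members rose, against a background of 1.66%, and 2.22% fell, against a background of 2.11%. At an unadjusted p under 0.05 there were 16 members, 8 in each direction, or 17.8% against 15.1% of all genes. The median change of the members was -0.0027, beside 0.0068 over all genes, and the median size of change regardless of sign was 0.11, beside 0.08. The standard errors of the members ran from 0.08 to 0.14. In size, 71 of the 90 changes were smaller than 0.2, beside 16411 of the 19938 over all genes.

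**Figure D1:**
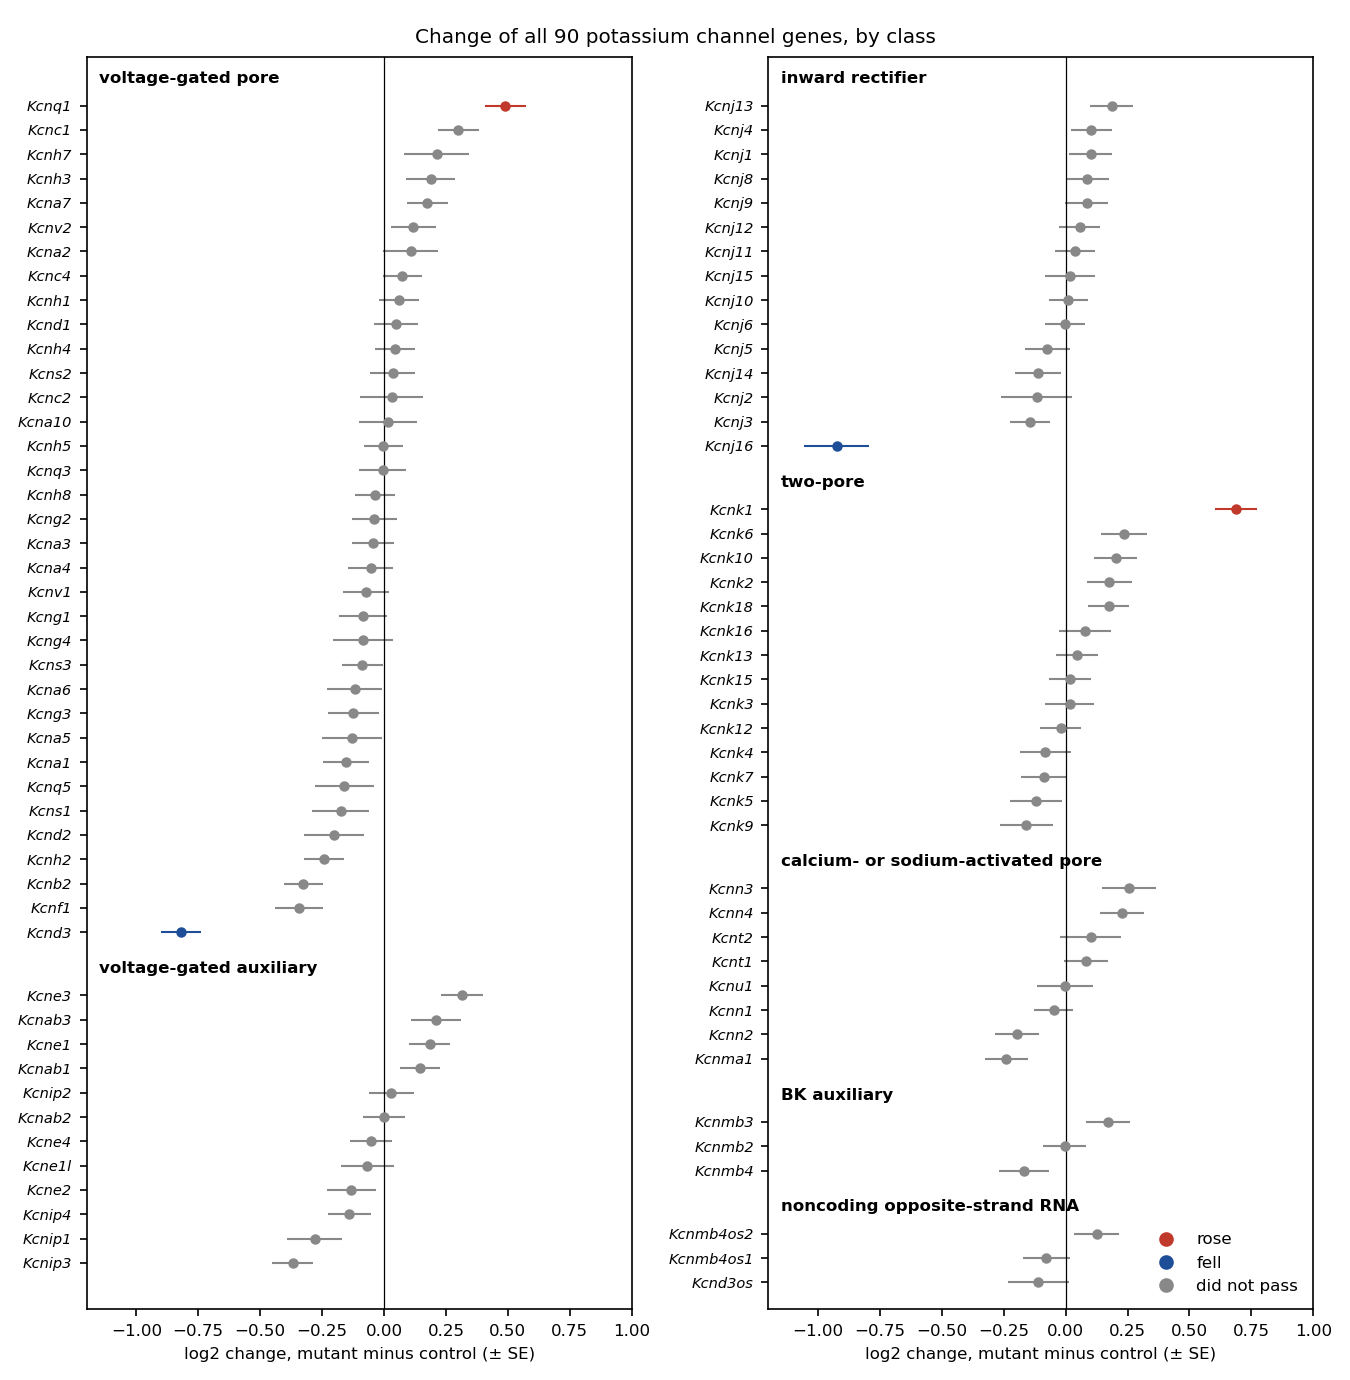
Log2 change (mutant minus control, horizontal axis) of each of the 90 potassium channel genes, grouped by class; points are the estimate and bars its standard error, from 3 mutants and 3 controls. Kcnk1 and Kcnq1 stand to the right and Kcnd3 and Kcnj16 to the left, while the 86 grey members lie between -0.37 and 0.32.

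The groups did not overlap for 22 members, with mutants higher in 11 and lower in 11. This was 24.4% of members, against 19.8% of all genes; the background was 10.0% for mutants higher and 9.78% for mutants lower. The change had one sign in all 3 litters for 32 members, or 35.6%, against 35.9% of all genes. Across the 90 members, the litter differences correlated between pairs of litters by 0.50 to 0.57 (Pearson), against 0.27 to 0.61 over all genes. Across the 86 members that did not pass they correlated by 0.22 to 0.31. The figure for all genes includes called genes, so it is no like measure for these 86. These are correlations across genes of the same arrays, and genes are not independent replicates.

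The upstream windows of Kcnd3, Kcnj16 and Kcnk1, 3 of the 4 called members, are shown because the mutants lack a hedgehog signal, whose Gli factors bind DNA at a known motif. Each runs from 250 bases before to 50 after an annotated start and is taken from RefSeq on GRCm38.p6. Kcnd3 lies at chr3:105451640-105451939 on the plus strand, Kcnj16 at chr11:110967783-110968082 on the plus strand (the most upstream of its 4 windows) and Kcnk1 at chr8:125994852-125995151 on the plus strand. Capitals mark matches to CCACCC, the core of the Gli motif, or to its reverse complement GGGTGG.
Kcnd3: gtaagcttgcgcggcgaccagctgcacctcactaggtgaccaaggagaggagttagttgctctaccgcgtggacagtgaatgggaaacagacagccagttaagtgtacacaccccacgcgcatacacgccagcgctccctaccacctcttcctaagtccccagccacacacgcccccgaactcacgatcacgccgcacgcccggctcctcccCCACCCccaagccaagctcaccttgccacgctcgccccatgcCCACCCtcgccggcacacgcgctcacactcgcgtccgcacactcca
Kcnj16: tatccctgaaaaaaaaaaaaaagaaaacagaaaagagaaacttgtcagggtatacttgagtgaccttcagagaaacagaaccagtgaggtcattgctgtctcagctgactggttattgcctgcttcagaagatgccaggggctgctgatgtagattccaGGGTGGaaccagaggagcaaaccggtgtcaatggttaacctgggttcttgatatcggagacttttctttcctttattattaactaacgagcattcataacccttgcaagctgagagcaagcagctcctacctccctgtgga
Kcnk1: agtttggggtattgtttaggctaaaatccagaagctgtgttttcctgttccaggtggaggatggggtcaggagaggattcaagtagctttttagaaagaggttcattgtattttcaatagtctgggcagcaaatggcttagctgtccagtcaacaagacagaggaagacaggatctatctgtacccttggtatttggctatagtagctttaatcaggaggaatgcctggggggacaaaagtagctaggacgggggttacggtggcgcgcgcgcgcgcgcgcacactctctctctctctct

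The Kcnd3 window holds the core at 2 places, the Kcnj16 window at 1, and the Kcnk1 window at none. Of the other 3 windows of Kcnj16, 1 holds the core. Both strands were searched, and the core lies inside the longer Gli consensus GACCACCCA. The consensus occurred in none of 93 windows of the 68 members with a window, and in 0.253% of all 32851 windows of the same length. Windows of the same gene were counted separately and some overlap, as for Kcnc2, so windows are not independent. The core occurred in 58.1% of the member windows and 31.5% of all windows, whose median GC contents were 58.3% and 52.7%; the part of base composition in this was not tested. TTTATG, a Cdx-type motif, occurred in 2.15% and 11.9%, and TATAAA, the TATA box, in 5.38% and 13.6%. The serum response factor motif, the CArG box, occurred in none of the member windows and in 1.63% of all. A match is a stretch of letters and says nothing of binding.

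Kcnd3, the pore of an A-type channel that opens and inactivates quickly and is known from smooth muscle of mouse colon, had the smallest p of the family. It read 7.33, 7.28 and 7.33 in mutants 1 to 3, against 8.13, 8.16 and 8.12 in controls 1 to 3. All 3 mutants lay below all 3 controls, and the spread within a group was small (SD 0.027 in mutants and 0.021 in controls, n = 3 each). The change was -0.82 ± 0.08, which is a level 1.77-fold lower (limma adjusted p = 0.00261). The difference was -0.79, -0.87 and -0.79 in litters 1, 2 and 3. Kcnd3os, the RNA from the opposite strand of the locus, read 7.08, 7.09 and 6.98 in mutants, against 7.51, 6.86 and 7.11 in controls, and did not pass (-0.11 ± 0.12).

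The subunits that assemble with this pore were read beside it. Kcnip genes encode calcium-binding proteins that raise the surface level of A-type channels. Kcnip3 had the next smallest p after the 4 called members: it read 6.34, 6.53 and 6.44 in mutants and 6.80, 6.91 and 6.71 in controls. All mutants lay below all controls, but the change of -0.37 ± 0.08 did not pass (adjusted p = 0.0557). Kcnip1 stood at -0.28 ± 0.11 and Kcnip4 at -0.14 ± 0.09, with groups apart in both, and Kcnip2 at 0.03 ± 0.09. Dpp10, a peptidase-like membrane partner of these channels and no member by name, read 6.65, 6.73 and 6.81 in mutants and 7.50, 7.46 and 7.12 in controls. It fell by 0.63 ± 0.11 (adjusted p = 0.0257), and its relative Dpp6 stood at -0.04 ± 0.15. The other pores of the group, Kcnd2 and Kcnd1, stood at -0.20 ± 0.12 and 0.05 ± 0.09 and did not pass.

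**Figure D2:**
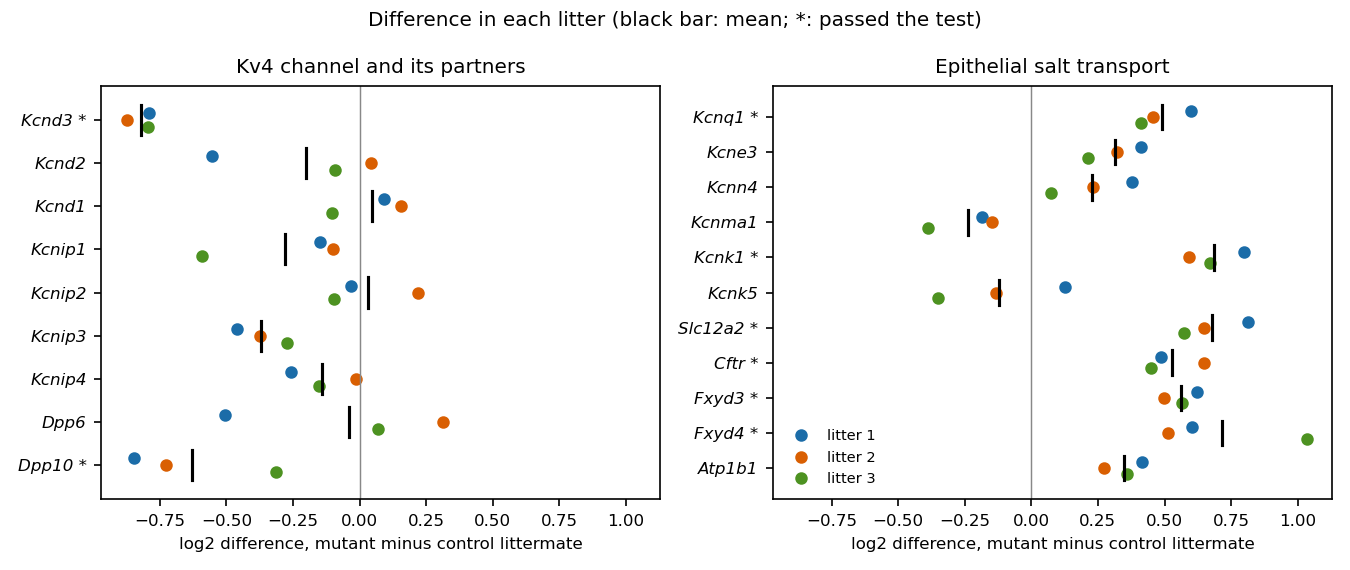
Log2 difference between mutant and control littermate (horizontal axis) in litters 1 to 3 (coloured points), with the mean as a black bar, for A-type channel genes and their partners (left) and genes of epithelial salt transport (right); asterisks mark genes that passed. Kcnd3 lies between -0.87 and -0.79 in the 3 litters, and Kcnq1, Kcnk1, Slc12a2, Cftr, Fxyd3 and Fxyd4 lie above 0 in each. The genes drawn were picked after their values were seen. Other measured transport genes were not drawn, among them Atp12a (-0.61), Atp1b3 (0.01) and Slc12a7 (0.07).

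Kcnq1 encodes the pore of a channel in the basolateral membrane of colonic crypt cells, where it works with the subunit encoded by Kcne3 to recycle potassium during chloride secretion. Kcnq1 read 9.07, 9.18 and 9.14 in mutants 1 to 3, against 8.47, 8.72 and 8.73 in controls 1 to 3. All mutants were higher than all controls, and the lowest control came from litter 1. Kcnq1 rose by 0.49 ± 0.08, or 1.40-fold, with limma adjusted p = 0.0209. Kcne3 read 10.00, 9.89 and 9.86 in mutants and 9.59, 9.57 and 9.65 in controls. Its groups were apart as well and it was higher in 3 of 3 litters, but the change of 0.32 ± 0.08 did not pass (adjusted p = 0.0953).

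Among the other voltage-gated pores no gene passed. Kcnb2, a delayed rectifier pore, read 6.47, 6.25 and 6.36 in mutants and 6.80, 6.55 and 6.71 in controls, and stood at -0.33 ± 0.08 (adjusted p = 0.0708). Kcnf1, a subunit that forms no channel alone and modifies Kcnb-type pores, stood at -0.34 ± 0.10 with overlapping groups. Kcnh2, the pore of a rapid delayed rectifier that helps to set the resting potential of gut muscle, stood at -0.24 ± 0.08 with groups apart (adjusted p = 0.186). Kcnc1, a fast delayed rectifier pore of neurons, was on the other side at 0.30 ± 0.08 (adjusted p = 0.108). The mean signal of Kcnc1 was in the dimmest 30% of all genes tested. Kcnq5, a pore of slowly opening currents in nerve and muscle, stood at -0.16 ± 0.12, and Kcna5, a delayed rectifier pore of muscle, at -0.13 ± 0.12. The 35 pores of this class had a median change of -0.04, with 14 above 0 and 21 below, and the 12 auxiliary subunits had a median of -0.03, with 6 on each side.

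Kcnj16, an inward rectifier subunit best known from kidney and brain, where it assembles with the Kcnj10 product, showed the biggest change in the family. It read 5.55, 5.82 and 5.53 in mutants 1 to 3, against 6.35, 6.46 and 6.86 in controls 1 to 3. All mutants lay below all controls, and control 3 was the highest. Kcnj16 fell by 0.92 ± 0.13, or 1.90-fold, with limma adjusted p = 0.0103, and the difference was -0.80, -0.65 and -1.33 in litters 1 to 3. Its mean signal puts it in the dimmest 30% of all genes tested, and with no background level to set it against, the size of this change is uncertain. Kcnj10 stood at 0.01 ± 0.08 and did not pass.

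The other 14 inward rectifiers lay between -0.14 and 0.19. Kcnj8, the pore of the ATP-sensitive channel of vascular and visceral smooth muscle, read 8.76, 8.81 and 8.68 in mutants and 8.78, 8.58 and 8.63 in controls, at 0.09 ± 0.09. Its regulatory subunit Abcc9 stood at 0.01 ± 0.10. The pore and regulator of the ATP-sensitive channel of endocrine cells, Kcnj11 and Abcc8, stood at 0.04 ± 0.08 and 0.20 ± 0.08, and neither passed. Kcnj13, which is found in fluid-transporting epithelia, stood at 0.19 ± 0.09 with groups apart, and Kcnj2, a strong inward rectifier of muscle and endothelium, at -0.12 ± 0.14. Both were in the dimmest 30% of all genes tested.

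Kcnk1, a two-pore channel of many epithelia, rose. It read 10.66, 10.55 and 10.51 in mutants 1 to 3, against 9.86, 9.96 and 9.84 in controls 1 to 3. Every mutant was above every control by more than the range of either group. The change was 0.69 ± 0.08, or 1.61-fold, with limma adjusted p = 0.00612. Its close relative Kcnk6 read 8.76, 8.93 and 8.83 in mutants and 8.71, 8.57 and 8.52 in controls; the groups were apart, but 0.24 ± 0.09 did not pass (adjusted p = 0.269). Kcnk10, a channel opened by stretch and lipids, stood at 0.20 ± 0.09 and its relative Kcnk2, found in gut muscle, at 0.18 ± 0.09. Kcnk5, an acid-sensitive background channel of epithelia, read 9.02, 8.77 and 8.58 in mutants and 8.90, 8.90 and 8.93 in controls, at -0.12 ± 0.10. Its mutants spread on both sides of the controls. Kcnk3, another acid-sensitive background channel, stood at 0.02 ± 0.10. The 14 two-pore genes had a median of 0.03, with 9 above 0 and 5 below.

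**Figure D3:**
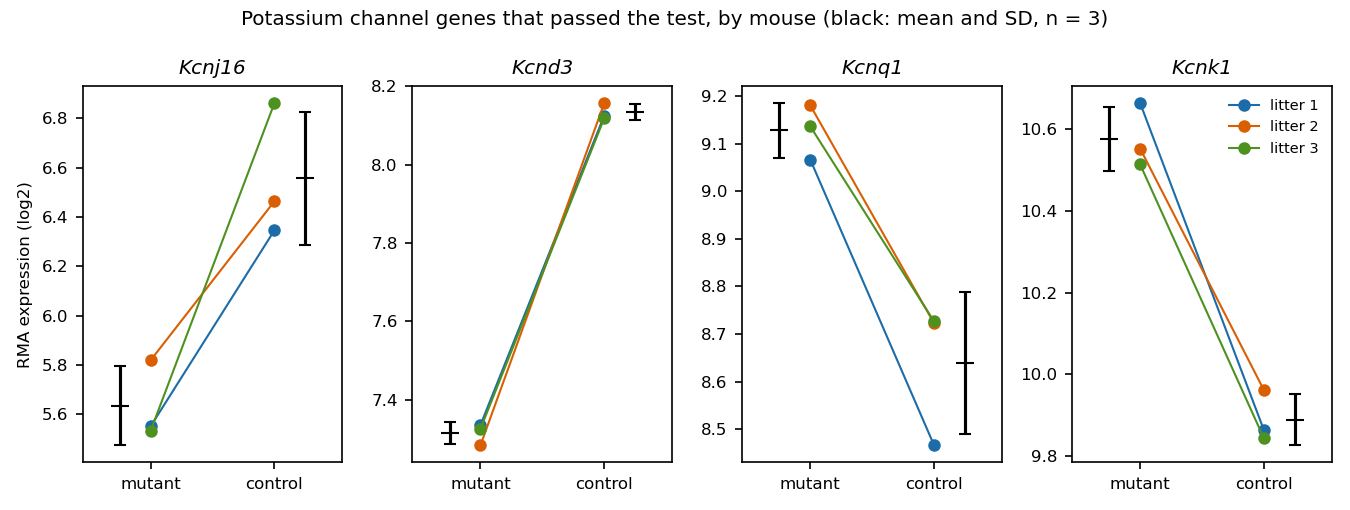
RMA expression (log2, vertical axis, a separate range in each panel) of Kcnj16, Kcnd3, Kcnq1 and Kcnk1 in each mouse; lines join littermates and black marks give the group mean and SD (n = 3). In each panel the 3 mutants and the 3 controls do not overlap.

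No calcium- or sodium-activated pore passed the limma test, and 3 of these 8 genes had an unadjusted p under 0.05, which 15.1% of all genes had. Kcnn4, the intermediate-conductance channel that hyperpolarises crypt cells during secretion, read 9.12, 9.34 and 9.17 in mutants and 8.74, 9.11 and 9.09 in controls. Its lowest mutant was just above its highest control, and 0.23 ± 0.09 did not pass (adjusted p = 0.278). Kcnma1, the BK pore of smooth muscle that also secretes potassium in the colonic epithelium, read 9.37, 9.43 and 9.26 in mutants and 9.55, 9.58 and 9.65 in controls. The groups were apart, and -0.24 ± 0.09 did not pass (adjusted p = 0.232). A second, dim row of Kcnma1 had a mean difference of 0.06, of opposite sign, with values of 4.70 to 5.22 in mutants and 4.79 to 5.14 in controls.

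Kcnn3, a small-conductance channel of the fibroblast-like cells that relay inhibitory nerve signals to gut muscle, read 9.64, 9.85 and 9.79 in mutants and 9.69, 9.44 and 9.39 in controls. Mutant 1 lay below control 1, the groups overlapped, and 0.26 ± 0.11 did not pass (adjusted p = 0.325). Kcnn2, another small-conductance channel, stood at -0.20 ± 0.09. Of the BK auxiliary subunits, Kcnmb2, Kcnmb3 and Kcnmb4 stood at -0.0035 ± 0.09, 0.17 ± 0.09 and -0.17 ± 0.10, and none passed (0 of 3 also at an unadjusted p under 0.05).

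Genes that move potassium or regulate its channels but fall outside the naming rule were read as a list of 38, of which 33 were measured. Of these, 4 rose, 2 fell and 27 did not pass, with a median of -0.04. Over all genes tested, 1.66% rose and 2.11% fell, and the list was chosen with earlier results of these data known. Slc12a2, the basolateral cotransporter that loads crypt cells with sodium, potassium and chloride, read 11.86, 11.97 and 11.91 in mutants and 11.05, 11.32 and 11.34 in controls, and rose by 0.68 ± 0.09 (adjusted p = 0.0067). Cftr, the apical chloride channel, read 10.38, 10.61 and 10.41 in mutants and 9.89, 9.96 and 9.96 in controls, and rose by 0.53 ± 0.08 (adjusted p = 0.0168). Fxyd3 and Fxyd4, small regulators of the sodium pump, rose by 0.56 ± 0.08 and 0.72 ± 0.11 (adjusted p = 0.0110 and 0.0160). The other Fxyd genes of the list went both ways and did not pass. Fxyd1 stood at -0.42 ± 0.10, Fxyd6 at -0.24 ± 0.10 and Fxyd7 at -0.08 ± 0.11. Fxyd2 stood at 0.07 ± 0.09 and Fxyd5 at 0.18 ± 0.08.

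Besides Dpp10, the other gene of the list that fell was Ano1, the calcium-activated chloride channel of interstitial cells of Cajal and also of some epithelia. It read 9.35, 9.07 and 9.07 in mutants and 10.29, 10.42 and 10.72 in controls, at -1.31 ± 0.13 (adjusted p = 0.00276). Atp12a, the potassium-absorbing pump of the colon surface, read 11.40, 10.41 and 11.04 in mutants and 11.30, 11.47 and 11.92 in controls, at -0.61 ± 0.20 (adjusted p = 0.168); mutant 1 was higher than its littermate and the groups overlapped. Atp1b1, a subunit of the sodium pump, stood at 0.35 ± 0.08 and Lrrc26, an epithelial BK partner, at 0.26 ± 0.21, and neither passed. On the other side, Lrrc55 stood at -0.36 ± 0.09 and Slc12a4 at -0.32 ± 0.12. Both had groups apart and did not pass.

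Markers of the cell types that carry these channels were summed per mouse on the linear scale and are given as log2. In whole colon, fewer cells of a type and less RNA per cell cannot be told apart. For the marker counts here and below, the background over all genes was 1.66% rising and 2.11% falling. An unadjusted p under 0.05 in limma was seen for 15.1% of all genes. Smooth muscle markers summed to 14.95 to 15.29 in mutants and 15.48 to 15.56 in controls, with 6 of 10 genes falling and 0 rising. Interstitial cell markers lay at 11.83 to 11.97 in mutants and 12.07 to 12.25 in controls, with 2 of 5 falling, Ano1 (-1.31) and Prkg1 (-0.46). Kit, their defining receptor, stood at 0.01 ± 0.09, Etv1 at -0.12 ± 0.08 and Thbs4 at 0.43 ± 0.12, and the median of the list was -0.12. Endothelial and pericyte markers lay at 12.07 to 12.19 in mutants and 12.40 to 12.53 in controls, with 4 of 9 falling. The summed levels of these lists moved in the direction of Kcnd3 and Kcnj16, and their part in those falls was not tested. The interstitial cell genes went both ways, as Ano1 had the biggest change and Kit and Thbs4 did not fall.

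Epithelial markers summed to 15.61 to 15.69 in mutants and 15.47 to 15.55 in controls, but 0 of 9 passed in limma at the adjusted p. Car1, Slc26a3 and Muc2, genes of mature colonocytes and of goblet cells, stood at 0.63 ± 0.14, 0.51 ± 0.13 and 0.35 ± 0.08 with groups apart in each, and these 3 of the 9 had an unadjusted p under 0.05 in limma. The other 6 epithelial markers, Epcam, Cdh1, Krt8, Krt19, Vil1 and Cldn7, lay between -0.08 and 0.11. Enteroendocrine markers lay at 12.93 to 13.41 in mutants and 11.99 to 12.08 in controls, with 3 of 6 rising. These 3 were the peptide hormone genes Gcg (1.99), Cck (1.39) and Pyy (0.68). Chga, Chgb and Neurod1 stood at 0.17 ± 0.09, 0.38 ± 0.09 and 0.15 ± 0.09 and did not pass. Small intestinal markers lay at 10.60 to 11.82 in mutants and 10.26 to 10.72 in controls, with 1 of 6 rising, and mutant 2 lay within the range of controls. The part of these lists in the rises was not tested.

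Neuron markers overlapped between the groups, at 11.27 to 11.62 in mutants and 11.35 to 11.65 in controls, with 0 of 9 passing. Their median difference was -0.44, 0.21 and 0.04 in litters 1 to 3. Over all 90 potassium channel genes the median was -0.06, 0.06 and 0.03. Dpp6 and Kcnd2 were also lowest in litter 1, at -0.51 and -0.55, and any link to the neuron markers was not tested. Glial markers lay at 8.36 to 8.56 in mutants and 8.54 to 8.59 in controls, with 0 of 3 passing. Fibroblast-like cell markers lay at 13.81 to 14.23 in mutants and 14.12 to 14.21 in controls, and 1 of 5, the receptor gene Pdgfra, fell (-0.42 ± 0.08, adjusted p = 0.0339). Neutrophil and macrophage markers summed to 10.32 to 10.73 in mutants and 10.37 to 10.48 in controls, but their members went both ways. Of 8, the 5 that rose were Cxcr2, S100a8, S100a9, Csf3r and Itgam (0.52 to 1.60), while the macrophage genes Csf1r and Adgre1 stood at -0.38 ± 0.09 and -0.43 ± 0.10 with groups apart and did not pass.

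**Figure D4:**
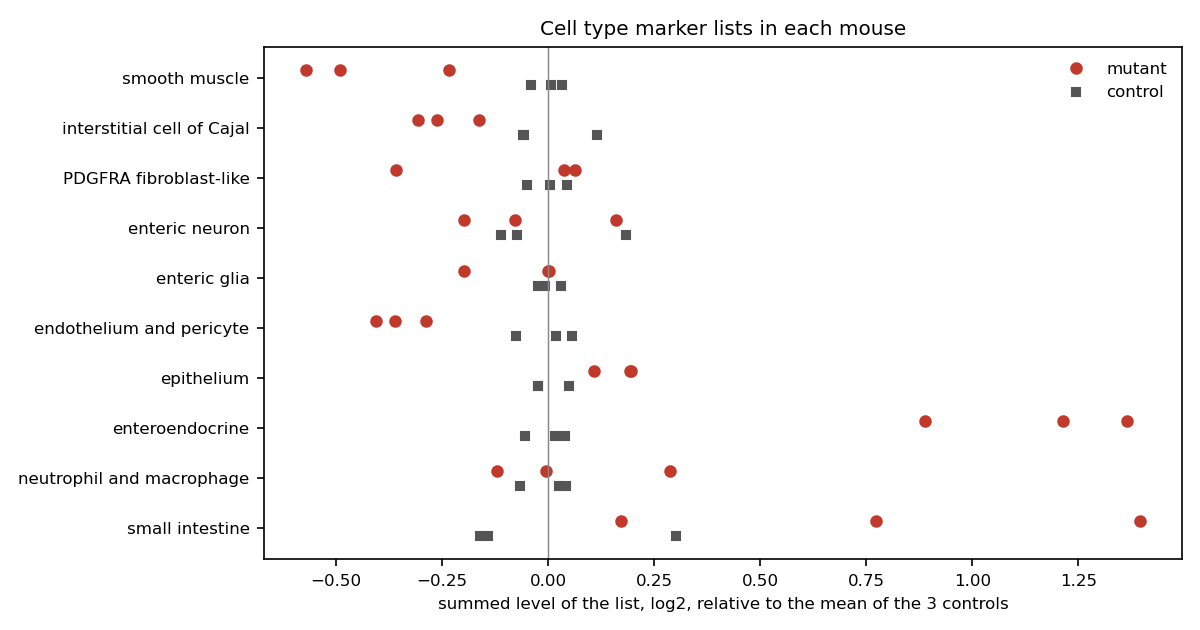
Summed level of each cell type marker list (log2, relative to the mean of the 3 controls, horizontal axis) in each mutant (circles) and control (squares). Mutants lie below all controls for smooth muscle, interstitial cell, and endothelial and pericyte lists, and above all controls for epithelial and enteroendocrine lists. The single genes of the interstitial cell list went both ways. In the epithelial list 0 of 9 genes passed, and Epcam, Cdh1, Krt8, Krt19, Vil1 and Cldn7 lay between -0.08 and 0.11.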

How the data were processed

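RNA of whole colon from 3 mutant and 3 control mice was read on 1 array each. The values are log2 expression, which per the submitters' processing notes the authors made with RMA and deposited as 35557 rows for 6 arrays; its version and the build are not stated. Rows were named through the platform annotation of 2016: 21789 had 1 symbol, 1621 several and 12147 none. Rows with 1 symbol were used, and the row with the highest mean was kept per gene, leaving 19938 genes. Entrez identifiers of all 90 members matched RefSeq (GRCm38.p6) with 0 symbols changed; 3 members had several rows. 6 further RefSeq symbols fitting the naming rule were not analysed here.

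Mutant was compared with control in limma 3.58.1 (R 4.3.3; lmFit, eBayes without trend, two-sided) with the litter as a fixed block, because the design text gives littermates. The deviations from the group mean correlated between littermates by 0.0128, 0.00516 and 0.0613 across genes, and the pairing is taken from the labels. Residual degrees of freedom were 2, and the prior was worth 5.85 more. Array values carry no counts, and the number of arrays limits precision. On simulated data with 200 of 19938 genes changed, the fit recovered 35.8% of changes of 0.5, 100% of 1 and 100% of 2, and 6 of 163 calls were false.

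Alternatives were no block, a random block, each litter left out, eBayes with trend and robust, array weights, a filter on dim genes, quantile normalization, median centring and the mean of a gene's rows. Members, lists and tests were chosen with earlier results of these data known. Named members were those called, those with unadjusted p under 0.05 (up to 12 a direction) and a list of channels with known gut roles; Abcc8, Abcc9, Slc12a2, Cftr, Atp12a and called genes were named from the partner list. Other genes named, and the separate class for the 3 noncoding RNAs, were chosen after their values were seen.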

Additional observations from a re-analysis of the deposited data

How the results depend on the processing

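Under 11 alternatives, Kcnd3, Kcnk1 and Kcnq1 were called in each with an unchanged direction, and Kcnj16 in the 10 that tested it; it is not tested when the dimmest 30% of genes are left out. The change of Kcnd3 ran from -0.83 to -0.79 (adjusted p 0.000557 to 0.00754), of Kcnk1 from 0.63 to 0.73 (0.00136 to 0.0167), of Kcnq1 from 0.43 to 0.53 (0.0102 to 0.0459) and of Kcnj16 from -1.06 to -0.72 (7.6e-05 to 0.0306). Without the litter block the same 4 members were called, and 638 of all genes against 751 with it, so the block changed no member's call. Array weights gave 1246 genes in all (512 that rose and 734 that fell) and 6 members, 4 of them falling. The added ones were Kcnip3 (adjusted p = 0.0366) and Kcnb2 (0.0369), which also passed without the dimmest 30% (0.0386 and 0.0476); Kcnip3 passed with the litter as a random block (0.0453). Leaving out each litter gave 546 to 798 genes (247 to 403 that rose, 299 to 484 that fell), 4 members in each case, and a member median of -0.030 to 0.041. Over those 3 fits, 4 named members with no call changed sign: Kcnq5 ran from -0.29 to 0.0075 (above 0 without litter 1), Kcnk3 from -0.065 to 0.13 (below 0 without litter 2 and, at -0.016, without litter 3), Kcnj2 from -0.35 to 0.044 and Kcnmb2 from -0.051 to 0.064 (both above 0 without litter 3). With 1 array per mouse and no background level, changes of dim genes are limited in precision: 34 of the 90 members were in the dimmest 30%. Among these were Kcnj16, Kcnc1, Kcnj13, Kcnj2, Kcna5, Kcnk10, Kcnn2 and Kcnmb2.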
